A study of Mus musculus with 24 samples.

Results

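The genes described here are 9 genes of blood clotting and clot breakdown out of the 41388 Ensembl genes in the count table: F3, F7, F10, F13a1, Thbd, Plau, Plat, Plaur and Serpinb2. They were matched to Ensembl identifiers by symbol. F10 and Serpinb2 were selected on their log2 fold change between EAM and control hearts, among the strongest inductions here, so their differences between EAM and control hearts are given as a description without a test, and counts of genes past a limit are over the other 7. Experimental autoimmune myocarditis (EAM) was induced in wild type male Balb/c mice (BALB/cAnNCrl), 8 to 10 weeks old when immunized, with a myosin heavy chain peptide in complete Freund's adjuvant supplemented with mycobacteria. The emulsion (200 µl, with 100 µg of peptide) was injected on day 0 and again on day 7, and pertussis toxin was given on day 0. Control mice received the same adjuvant with PBS in place of the peptide, and also pertussis toxin, so that adjuvant and toxin are shared by all groups and no untreated heart was sequenced. RNA of a portion of the heart was sequenced at day 10, 15 and 21 (D10, D15 and D21), with 4 EAM and 4 control hearts at each time point. Where possible the study picked EAM hearts that showed inflammation.

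Clotting starts when tissue factor (F3), a membrane protein, binds factor VII (F7), and the complex activates factor X (F10), the protease that turns prothrombin into thrombin. Thrombin makes fibrin, and factor XIII, whose A chain is the product of F13a1, cross-links it. Thrombomodulin (Thbd) on endothelium redirects thrombin towards the anticoagulant protein C. Fibrin is removed by plasmin, which the proteases urokinase (Plau) and tissue plasminogen activator (Plat) release from plasminogen. The receptor Plaur holds urokinase at the cell surface, and Serpinb2 (plasminogen activator inhibitor type 2) inhibits urokinase. The liver makes most of the factor VII and factor X in plasma, while macrophages can also express several of these genes.

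Libraries held between 15814863 and 24980864 counted reads (median 19469782.5), and a limit of 3 counts lay between 0.105 and 0.200 CPM. CPM are read counts scaled to the library total after TMM normalization, which adjusts for composition. Where genes are compared with each other, levels are CPM per kb of exon. A gene was called induced or repressed when edgeR's quasi-likelihood test gave a false discovery rate (FDR) under 0.01 over all genes kept and the change reached 2-fold. At D10 the EAM heart of replicate 1 stood apart from the other 3, and at D21 the EAM heart of replicate 3 was the lowest for 7 of the 9 genes. The 4 EAM libraries of D21 carry another library code than the other 20, so that code and EAM cannot be told apart at D21. In whole heart tissue, more cells of a type and more RNA per cell cannot be told apart.

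In the tissue factor arm, F7 and F10 were near 0 reads in the control hearts of D15 and D21 and were well above that in every EAM heart of D15, while F3 was lower in EAM hearts. F10 (ENSMUSG00000031444, GRCm38 chr8:13037308-13056676, plus strand) was at 0.208, 0.177, 0.104 and 0.294 CPM in the control hearts of D15. The EAM hearts of D15 held 131, 166, 106 and 126 CPM. All 4 EAM hearts lay above all controls. The mean was 132 ± 24.7 CPM (SD, n = 4) against 0.196 ± 0.0790 CPM, with a fitted log2 difference of 9.41. The summed reads, 13656 against 14, gave a ratio of 691 with a 95% interval of 412 to 1265. These intervals, like those below, cover counting error only, since reads are not independent molecules.

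At D10, F10 was spread widely over the EAM hearts, at 76.4, 0.283, 9.02 and 2.32 CPM, against 1.20, 0.615, 1.40 and 0.0661 CPM in the controls. Replicate 1 was high, replicate 2 lay within the control range, and the groups overlapped. The fitted log2 difference was 4.71, and 2.20 without replicate 1. In reads, the ratio was 29.8 (23.0 to 39.3) with all hearts and 4.59 (3.42 to 6.23) without that heart. At D21 the EAM hearts held 55.5, 23.8, 4.41 and 88.9 CPM, against at most 0.307 CPM in the controls. The groups of D21 did not overlap, although the EAM hearts differed among themselves by a wider margin than at D15. The log2 difference was 7.98 at D21.

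F7 (ENSMUSG00000031443) lies just upstream of F10 on the same strand, at chr8:13026034-13035809, with 1498 bases between the genes. Reads that run on from one of these genes into the other cannot be told apart in the counts. At D15 the EAM hearts held 34.8, 90.8, 16.5 and 36.3 CPM, and the control hearts at most 0.155 CPM. The second replicate was the highest and the groups did not overlap. F7 was induced, with a log2 difference of 9.26 ± 0.86 (standard error) and an FDR of 1.22e-05 in edgeR's test. At D21 the EAM hearts held 17.9, 4.47, 2.47 and 19.5 CPM and the controls at most 0.102 CPM. The log2 difference was 6.97 ± 0.92 and the FDR 0.00473, which rose to between 0.0193 and 0.0276 with any 1 control heart left out. In each of those fits 0 of all genes were induced, beside 630 of 15266 with all hearts, so the rise was not particular to F7. With an EAM heart of D21 left out, F7 no longer had enough reads for the test. F7 passed the filter on low values only through the EAM hearts and so had to differ, and its calls are not read as support for the group.

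At D10, F7 had 307 reads in the EAM heart of replicate 1 and between 7 and 13 in the other 3, with 22 reads over the 4 controls. The ratio of reads was 13.8 (8.94 to 22.3) with that heart and 1.57 (0.863 to 2.90) without it. An EAM difference in F7 at D10 was therefore not detectable in the other 3 hearts at this depth. F7 did not have enough reads for a fit at D10.

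The promoters of F10 and F7 are shown because these neighbouring genes were both higher in EAM hearts of D15, those of Serpinb2 and Plaur because they were higher there too, and that of F3 because it was lower. Each is the 250 bases before the RefSeq start site on GRCm38.p6, read along the gene, in lower case, with matches to the searched motifs in capitals.
F10 (chr8:13037058-13037307, plus strand): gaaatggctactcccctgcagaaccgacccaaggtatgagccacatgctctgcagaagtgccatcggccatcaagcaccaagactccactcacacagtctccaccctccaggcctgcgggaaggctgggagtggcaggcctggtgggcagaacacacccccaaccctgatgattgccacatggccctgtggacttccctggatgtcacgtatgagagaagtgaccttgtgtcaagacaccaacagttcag
F7 (chr8:13025784-13026033, plus strand): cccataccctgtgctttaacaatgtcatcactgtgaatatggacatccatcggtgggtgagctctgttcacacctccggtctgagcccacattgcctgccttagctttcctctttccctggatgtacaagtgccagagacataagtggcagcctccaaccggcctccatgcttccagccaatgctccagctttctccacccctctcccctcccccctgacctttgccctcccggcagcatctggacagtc
Serpinb2 (chr1:107511173-107511422, plus strand): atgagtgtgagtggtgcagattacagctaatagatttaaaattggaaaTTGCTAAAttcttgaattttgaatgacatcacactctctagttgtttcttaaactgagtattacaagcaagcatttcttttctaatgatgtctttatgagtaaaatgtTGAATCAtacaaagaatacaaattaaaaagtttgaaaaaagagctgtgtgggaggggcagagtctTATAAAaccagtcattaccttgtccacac
Plaur (chr7:24462233-24462482, plus strand): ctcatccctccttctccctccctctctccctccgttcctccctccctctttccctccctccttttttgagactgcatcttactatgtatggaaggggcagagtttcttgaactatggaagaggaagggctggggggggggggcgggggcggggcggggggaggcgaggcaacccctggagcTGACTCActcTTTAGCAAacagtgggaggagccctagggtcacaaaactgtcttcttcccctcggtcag
F3 (chr3:121723287-121723536, plus strand): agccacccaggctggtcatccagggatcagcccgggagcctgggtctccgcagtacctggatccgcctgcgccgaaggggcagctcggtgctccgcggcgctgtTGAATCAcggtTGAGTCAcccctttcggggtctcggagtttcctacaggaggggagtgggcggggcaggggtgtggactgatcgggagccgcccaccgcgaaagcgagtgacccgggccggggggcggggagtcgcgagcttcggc
The motifs searched on both strands were TGANTCA (AP-1 type), an NF-kB type motif (GGG and CC with 5 bases between them, of which the fourth is T), GAGGAAGT (PU.1 type), TTGCNNAA (C/EBP type), TTCNNNGAA (STAT type) and TATAAA. Of the 32851 promoters of this length, 6.75%, 14.9%, 2.44%, 9.56%, 7.02% and 12.4% hold a match, in that order.

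A RefSeq promoter was found for 6 of the 9 genes, with 8 start sites. Thbd, Plau and Plat had no entry. Neither F10 nor F7 held a match to any of the 6 motifs. F3 held 2 matches to TGANTCA, Plaur held 1 at -69 to -63 and Serpinb2 held 1 at -94 to -88 from the start site. Plaur and Serpinb2 also each held a match to TTGCNNAA, at -59 to -52 and at -202 to -195. Serpinb2 held a TATAAA at -29 to -24. A second start site of Serpinb2 added a match to TTCNNNGAA at -77 to -69 and another to TTGCNNAA at -19 to -12, and neither start site of F13a1 held a match. None of these matches overlapped another, and genes that were higher in EAM hearts (Serpinb2, Plaur) and a gene that was lower (F3) held TGANTCA. A match is a run of letters and not a measured binding site.

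**Figure D1:**
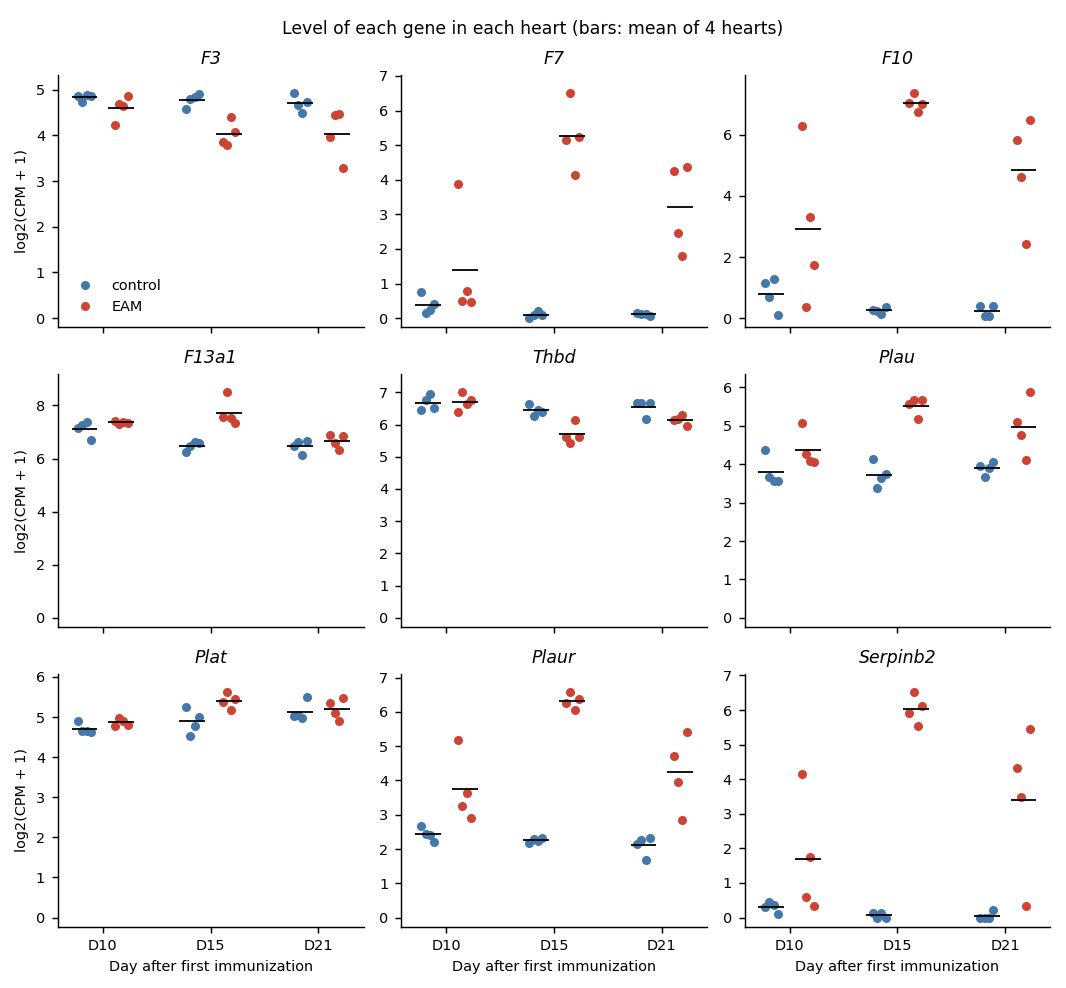
Level of each of the 9 genes in each heart as log2(CPM + 1), with control hearts in blue and EAM hearts in red at D10, D15 and D21, replicates in order from left to right, and the mean of 4 hearts as a black bar. F7, F10 and Serpinb2 sit near 0 in the controls of D15 and D21 and above 4 in all EAM hearts of D15, while F3 and Thbd sit lower in EAM hearts of D15 than in controls.

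F3 (ENSMUSG00000028128, chr3:121723537-121735048, plus strand) was present in every heart. At D15 it was at 13.6, 12.9, 20.3 and 16.0 CPM in EAM hearts and 22.8, 26.7, 27.9 and 29.1 CPM in controls. All EAM hearts lay below all controls. The log2 difference was -0.73 ± 0.14 with an FDR of 0.00136, so that F3 fell but by less than 2-fold. At D21 the EAM hearts held 14.5, 20.9, 21.0 and 8.77 CPM and the controls 21.5 to 29.6 CPM. These groups did not overlap either, and the difference of -0.62 ± 0.25 missed the threshold (FDR 0.0812). At D10 the difference was -0.24 ± 0.13 (FDR 0.374), and the EAM hearts, at 17.9 to 28.1 CPM, overlapped the controls, at 25.6 to 28.5 CPM. Tissue factor is known from cardiomyocytes, whose 7 marker genes summed to 7113 to 18596 CPM in EAM hearts of D15 and 27573 to 31987 CPM in controls. The part of this fall in the F3 result was not tested.

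F13a1, which codes for the A chain of factor XIII, was already abundant in control hearts and was induced at D15. F13a1 (ENSMUSG00000039109, chr13:36867178-37050244, minus strand) was at 187, 360, 183 and 161 CPM in the EAM hearts of D15 and at 74.5, 88.7, 97.2 and 95.4 CPM in the controls. The EAM hearts lay above all controls, and replicate 2 lay far above the other 3. F13a1 was induced, with a log2 difference of 1.36 ± 0.24 (FDR 0.000666), and remained so without replicate 2, at 1.06. At D10 the difference was 0.21 ± 0.13 (FDR 0.418) and at D21 it was 0.23 ± 0.16 (FDR 0.305). In these time points the EAM hearts (158 to 170 CPM at D10, 80.0 to 118 CPM at D21) overlapped the controls (102 to 166 CPM and 68.8 to 99.2 CPM).

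The EAM effect on F13a1 differed between time points. It was higher at D15 than at D10 by 1.10 ± 0.29 on the log2 scale (FDR 0.00516), and lower at D21 than at D15 by -1.12 ± 0.29 (FDR 0.00760). With the replicate number as a block the latter was -1.05 and no longer called (FDR 0.0144). Without replicate 2 of the D15 EAM hearts these differences were 0.81 (FDR 0.00852) and -0.81 (FDR 0.0119), both under 2-fold. With any 1 heart left out the FDR ranged from 0.00322 to 0.0121 for the first and from 0.00455 to 0.0189 for the second. The control hearts moved as well. F13a1 was at 102 to 166 CPM in controls of D10, above all controls of D15 and D21, with a difference of -0.65 ± 0.14 (FDR 0.0387) at D15 and of -0.67 ± 0.14 (FDR 0.0124) at D21. Markers of platelets and megakaryocytes, cells that also express F13a1, summed to 60.045 to 151 CPM in controls of D10 and to 13.7 to 24.5 CPM in later controls. Their part in the F13a1 result was not tested.

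Thbd (ENSMUSG00000074743, chr2:148404466-148408188, minus strand), the endothelial thrombin receptor, was lower in EAM hearts of D15. The EAM hearts held 48.3, 42.4, 68.8 and 47.8 CPM and the controls 99.1, 76.2, 86.8 and 82.6 CPM. The groups did not overlap. The log2 difference was -0.70 ± 0.15 (FDR 0.00183), again a fall under 2-fold. At D10 it was 0.03 ± 0.15 (FDR 0.927), and at D21, where the EAM hearts (60.7 to 77.0 CPM) overlapped the controls (71.8 to 101 CPM), it was -0.40 ± 0.12 (FDR 0.0370). The EAM effect at D15 was lower than at D10 by -0.78 ± 0.22 (FDR 0.00823). The 7 endothelial markers, such as Pecam1 and Cdh5, summed to 810 to 929 CPM in EAM hearts of D15 and to 1161 to 1495 CPM in controls, with a median log2 difference of -0.70. The part of these markers in the Thbd result was not tested.

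Of the plasminogen activators, Plau rose and Plat moved little. Plau (ENSMUSG00000021822, chr14:20836660-20843385, plus strand) was at 46.3, 50.2, 35.4 and 49.8 CPM in EAM hearts of D15 and at 16.6, 9.39, 11.4 and 12.3 CPM in controls. The EAM hearts all lay above the controls. Plau was induced, with a log2 difference of 1.91 ± 0.18 (FDR 1.23e-05). At D21 the EAM hearts held 33.6, 26.1, 16.2 and 57.7 CPM and the controls 11.8 to 15.6 CPM. The groups did not overlap, and the difference of 1.29 ± 0.35 missed the threshold (FDR 0.0254) in edgeR's test, but passed it without the lowest EAM heart, replicate 3 (1.51, FDR 0.00260). Without the highest, replicate 4, it was 0.88 (FDR 0.0302), and with any other heart left out the FDR lay between 0.0331 and 0.0688. At D10 the difference was 0.63 ± 0.29 (FDR 0.335), with replicate 1 highest in both groups.

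Plat (ENSMUSG00000031538, chr8:22757727-22782844, plus strand) was at 35.0 to 48.3 CPM in EAM hearts of D15 and at 21.96 to 37.2 CPM in controls, and the groups overlapped. The log2 difference was 0.55 ± 0.16, with an FDR of 0.0106 just above the limit and a change under 2-fold. It was 0.16 ± 0.09 (FDR 0.385) at D10 and 0.10 ± 0.17 (FDR 0.686) at D21, where 2 standard errors reach from -0.25 to 0.45.

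The balance of the activators was measured as the share of Plau in the sum of Plau and Plat, in CPM per kb. At D15 it was 74.1% ± 1.35 (SD, n = 4) in EAM hearts and 52.8% ± 1.22 in controls. All 4 EAM hearts, at 72.7% to 75.5%, lay above the controls, at 51.1% to 54.0%. The difference of 21.3 percentage points had a two-sided exact permutation p of 0.0286, the smallest that 4 against 4 hearts allow, and 0.0857 after adjustment over the 6 tests of this kind. At D21 the share was 68.5% ± 7.40 against 51.8% ± 3.45, with the same exact p and adjusted p and no overlap. At D10 it was 64.4% ± 8.09 against 57.4% ± 4.72 (exact permutation p 0.171, adjusted p 0.257), and the groups overlapped.

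The ratio of F3 to Thbd, a starter of clotting against a brake on it, moved little. At D15 its log2 value was -1.16 ± 0.11 (SD, n = 4) in EAM hearts and -1.14 ± 0.29 in controls, in CPM per kb. The difference of -0.03 had an exact permutation p of 0.914. At D10 and D21 the differences were -0.28 and -0.30, with exact permutation p of 0.143 and 0.314, and the groups overlapped at all 3 time points. The lowest single value, -2.23, belonged to the EAM heart of replicate 4 at D21.

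**Figure D2:**
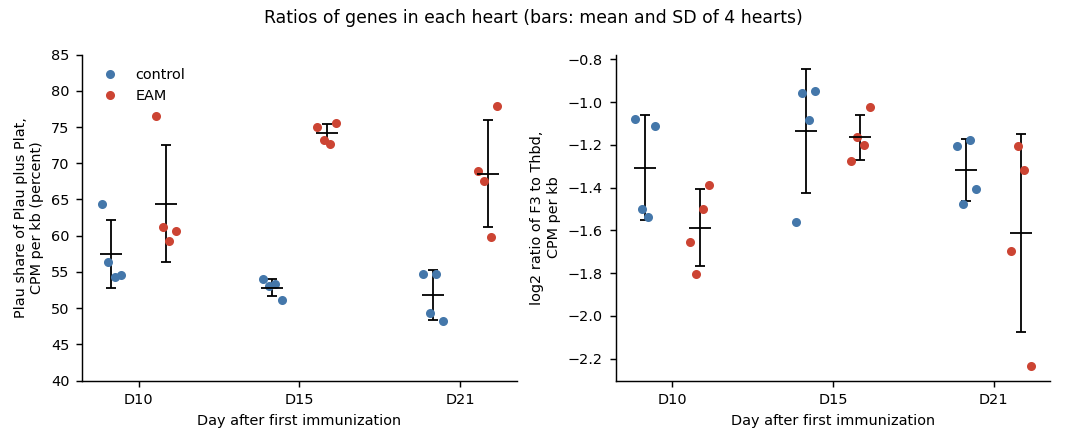
Share of Plau in Plau plus Plat (left, percent of CPM per kb, axis from 40) and log2 ratio of F3 to Thbd (right) in each heart, with control hearts in blue, EAM hearts in red, and the mean and SD of 4 hearts as black bars. The Plau share is above all controls in the EAM hearts of D15 and D21, and the F3 to Thbd ratio overlaps between the groups at each time point.

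Plaur, the urokinase receptor, showed the steadiest rise of the tested genes at D15. Plaur (ENSMUSG00000046223, chr7:24462484-24475968, plus strand) was at 76.0, 94.97, 65.3 and 82.8 CPM in EAM hearts and at 3.49, 3.90, 3.73 and 4.003 CPM in controls. The lowest EAM heart was far above the highest control. The log2 difference was 4.44 ± 0.13 (FDR 1.43e-08), and it lay between 4.37 and 4.56 with any 1 heart left out.

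At D21 Plaur was at 25.3, 14.6, 6.15 and 41.9 CPM in EAM hearts and at 2.19 to 4.04 CPM in controls, again without overlap. The difference was 2.75 ± 0.55, and its FDR of 0.0102 just missed the threshold. It passed with the replicate number as a block (2.48, FDR 0.00758) and without EAM replicate 3 (3.04, FDR 0.000752). At D10 the EAM hearts held 35.2, 8.55, 11.5 and 6.54 CPM and the controls 3.57 to 5.31 CPM. Plaur was the only 1 of the 6 genes tested at D10 whose groups did not overlap, as for 4.41% of all genes in this direction, and its difference of 1.80 ± 0.51 did not pass (FDR 0.328) and was 0.99 without EAM replicate 1. The EAM effect was higher at D15 than at D10 by 2.58 ± 0.67 (FDR 0.00519), and lower at D21 than at D15 by -1.69 ± 0.67 (FDR 0.0634). With any 1 heart left out, the first of these differences lay between 2.33 and 3.397, the latter without EAM replicate 1 of D10, and its FDR between 0.000143 and 0.0124.

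Serpinb2 (ENSMUSG00000062345, chr1:107511423-107535478, plus strand), the urokinase inhibitor, went from 0, 2, 0 and 2 reads in control hearts to between 1077 and 2598 reads in EAM hearts of D15. In these EAM hearts it was at 58.8, 91.0, 45.4 and 68.2 CPM, with a mean of 65.9 CPM against 0.0519 CPM. All EAM hearts were far above the controls. The fitted log2 difference was 10.12, and the ratio of 6856 to 4 reads was 1215 (474 to 4460). At D21 the EAM hearts held 19.0, 10.1, 0.267 and 42.7 CPM, while 3 of the 4 controls had 0 reads and the other 3 reads. Replicate 3, with 4 reads, was hardly above that control. The ratio of reads was 520 (178 to 2524).

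At D10 Serpinb2 was at 16.7, 0.510, 2.34 and 0.264 CPM in EAM hearts and at 0.0661 to 0.359 CPM in controls. Replicate 1 stood apart and replicate 4 lay within the control range. The ratio of reads was 23.1 (14.3 to 40.1) with all hearts and 4.23 (2.42 to 7.76) without replicate 1. Serpinb2 had too few reads for a fit at D10 and D21.

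**Figure D3:**
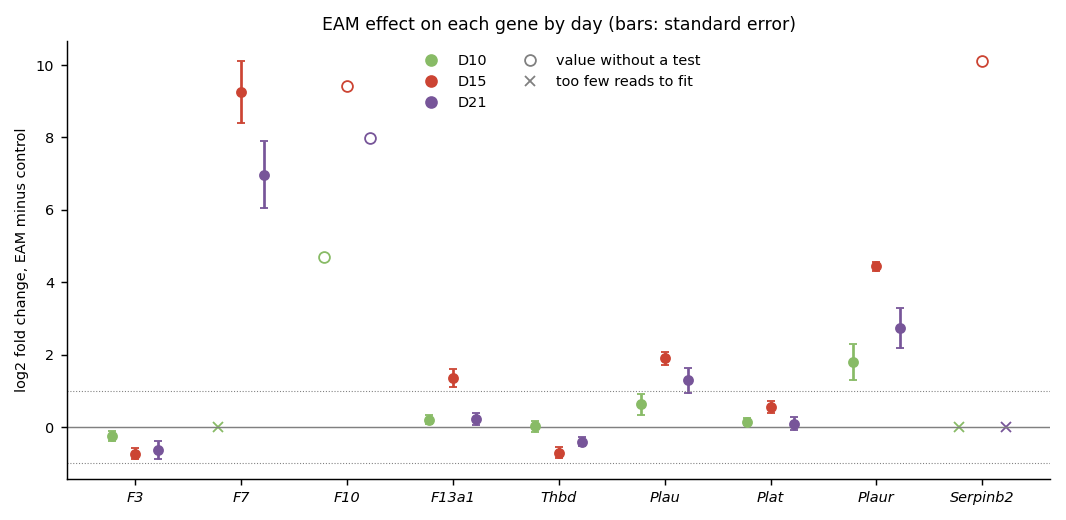
Log2 difference of EAM minus control hearts for each of the 9 genes at D10 (green), D15 (red) and D21 (purple), with the standard error of the edgeR fit for tested genes as bars, open circles for the untested values of F10 and Serpinb2, and crosses at 0 where reads were too few for a fit. Dotted lines mark a 2-fold change, and the D15 values of F7, F10, Plaur and Serpinb2 are above 4.

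Over the 7 genes, 0 of the 6 tested at D10 were called, where edgeR called 0% of all genes in either direction. DESeq2, limma-voom and edgeR's likelihood ratio test also called 0 of them. Of all genes, these called 48, 0 and 45 induced and 4, 0 and 2 repressed. Plaur was higher with an unadjusted p under 0.05, as were 9.71% of all genes, and 0 of the 6 were lower, as were 5.54%. Its groups did not overlap, as for 4.41% of genes higher and 3.75% lower. At D15, 4 of 7 were induced (F7, F13a1, Plau and Plaur), or 3 of 6 without F7, where 18.1% of all genes were, and 0 were repressed, where 12.9% were. F3 and Thbd were lower at that FDR with no limit on the fold, as were 31.1% of all genes. Leaving F7 out, the groups did not overlap for 3 of 6 genes that were higher and 2 that were lower, beside 34.6% and 35.9% of all genes.

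At D21, 0 of the 6 genes other than F7 were induced, where 4.13% of all genes were, and 0 were repressed, where 1.16% were, by edgeR's quasi-likelihood test. The number of all genes induced at D21, 630, was itself unstable and ranged from 0 to 1477 with 1 heart left out. F7 was called, but had to differ. DESeq2, the likelihood ratio test and the fit of all 24 samples called Plau and Plaur as well. With the replicate number as a block Plaur was called too. DESeq2 called 1364 of 15266 genes induced, the likelihood ratio test 1356 and the fit of all 24 samples 1514 of 16318. With the block, 601 of 15266 were induced. Besides F7, an unadjusted p under 0.05 was found for Plau and Plaur (higher, 25.2% of all genes) and for F3 and Thbd (lower, 21.2%). Besides F7, the groups did not overlap for Plau and Plaur, which were higher (17.8% of all genes), and for F3, which was lower (18.7%). The EAM effect on 2 of 7 genes (F13a1 and Plaur) was called higher at D15 than at D10, where this held for 5.38% of all genes and 7.35% were called lower. Thbd was lower there without a limit on the fold, as were 16.7%. The effect on 1 of 7 (F13a1) was called lower at D21 than at D15, where this held for 0.919% of all genes and 2.74% were called higher. In the blocked fit 0 of 7 were.

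In the control hearts alone, 6 of the 9 genes could be tested between time points and 0 were called by edgeR, DESeq2 or limma-voom. Over all genes edgeR called 0% higher and 0.0718% lower at D15 than at D10, and 0.607% higher and 0.353% lower at D21. An unadjusted p under 0.05 was found at D15 for F13a1, which was lower, where 8.38% of all genes were lower and 8.44% higher. At D21 it was found for F13a1 and Plaur, which were lower (13.3% of all genes), and for Plat, which was higher (14.9%). F10 summed to 59 reads in the controls of D10 and to 14 reads in those of D15 and of D21. The ratio of D15 to D10 was 0.229 (0.118 to 0.416), and 3 of the 4 D10 controls held 12 to 25 reads while the other held 1. F7, with 22, 5 and 7 reads, and Serpinb2, with 17, 4 and 3 reads, were likewise highest at D10. The neutrophil markers summed to 130 to 246 CPM in controls of D10 and to 16.8 to 82.1 CPM in those of D15, with 0 of 7 above 0 in log2 difference (median -1.84), and 0 of 11 macrophage markers were above 0 (median -0.55). The part of these markers in the change of the controls was not tested.

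In controls of D15, the level per kb of exon was highest for Thbd (23.1 ± 2.59 CPM per kb, SD, n = 4), followed by F13a1 (13.2 ± 1.53), F3 (10.5 ± 1.07), Plau (5.24 ± 1.28), Plat (4.67 ± 1.05) and Plaur (1.44 ± 0.0856). F10, F7 and Serpinb2 were below 0.1 CPM per kb. The ranges of F13a1 and F3, of Plau and Plat, and of the lowest 3 overlapped, and the other neighbours in this order did not. In EAM hearts of D15 the order differed, with F13a1 second in both. F10 was highest at 48.4 ± 9.06 CPM per kb, then F13a1 (33.1 ± 13.7), Plaur (30.5 ± 4.75), Serpinb2 (28.0 ± 8.17), F7 (23.99 ± 17.2) and Plau (19.2 ± 2.93). Thbd (13.9 ± 3.12), Plat (6.67 ± 0.884) and F3 (6.20 ± 1.33) came last. Only Thbd and Plat did not overlap among neighbours in this order.

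The EAM hearts of a time point ranked alike for several genes. At D21 the order was replicate 4, 1, 2 and 3 from high to low for F10, F7, Serpinb2, Plaur, Plau and Plat. F3 and Thbd had exactly the reverse order, and F13a1 had replicate 1 first, then 4, 2 and 3. The summed cardiomyocyte markers and the summed endothelial markers had the same order as F3 and Thbd, so this order was not particular to these genes. At D10 replicate 1 was highest for F10, F7, Serpinb2, Plaur, Plau and F13a1 and lowest for F3, Thbd and Plat. At D15 replicate 2 was highest for these 6 and for Plat.

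Most other clotting factors that are made in liver had few or no reads in the heart. Of 39 further genes of the pathway with an identifier, 16 were below 1 CPM in every heart, among them prothrombin (F2), factor IX (F9), fibrinogen (Fga, Fgb and Fgg), plasminogen (Plg), protein C (Proc, with 0 reads) and antithrombin (Serpinc1). The sum of the 7 hepatocyte markers overlapped between the groups at D15, at 15.7 to 28.2 CPM in EAM hearts and 10.4 to 22.2 CPM in controls. It was higher in EAM hearts without overlap at D10 (20.8 to 33.4 CPM against 10.4 to 14.7 CPM) and lower without overlap at D21 (3.97 to 9.70 CPM against 13.3 to 19.1 CPM). Albumin (Alb) had 0 reads in all EAM hearts of D15 and D21. Apoa1, another hepatocyte marker, also had 0 reads in the EAM hearts of D15. F5, the cofactor of activated factor X, was at 3.58, 8.86, 4.68 and 4.63 CPM in EAM hearts of D15 and at 0.0590 to 0.521 CPM in controls. It differed by 4.06 ± 0.45 on the log2 scale (FDR 3.62e-05), and like F7 the gene passed the filter only with the EAM hearts and so had to differ. In control hearts of D10, however, F5 was at 3.14 to 12.1 CPM, and it fell by 4.10 ± 0.53 (FDR 0.00427) from D10 to D15. The platelet markers given above moved the same way, and their part in the F5 result was not tested.

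Among the anticoagulants, 3 of 6 genes tested at D15 were induced and 0 were repressed, beside 18.1% and 12.9% of all genes, and 2 of the 4 with 10 reads in all 4 controls were. Tfpi2, an inhibitor of several proteases, rose by 2.68 ± 0.23 (FDR 7.04e-06), Procr, the endothelial receptor of protein C, by 2.24 ± 0.14 (FDR 9.51e-07) and Proz, for protein Z, by 1.497 ± 0.27 (FDR 0.000687), although Proz passed the filter only with the EAM hearts. Tfpi, the main inhibitor of the tissue factor complex, was at 50.6 to 73.5 CPM in EAM hearts and 75.6 to 91.3 CPM in controls, and fell by 0.44 ± 0.11 (FDR 0.00630). At D21 Tfpi was lower by -0.70 ± 0.09 (FDR 0.00467), also under 2-fold. Among genes of the plasminogen system, 4 of 6 were induced at D15 and 0 were repressed, beside the same shares of all genes. Lrp1, a clearance receptor, rose by 1.74 ± 0.16 (FDR 9.95e-06). Anxa2 and S100a10, which together bind plasminogen at the cell surface, rose by 1.73 ± 0.15 (FDR 7.36e-06) and 1.504 ± 0.13 (FDR 8.10e-06).

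Of the 4 protease-activated receptors, through which thrombin and other clotting proteases act on cells, F2rl2 was at 1.73 to 2.80 CPM in EAM hearts of D15 and had 1 to 3 reads in each control. Its difference of 4.15 ± 0.32 (FDR 3.77e-06) is subject to the same limit. F2r, the main thrombin receptor of many cells, differed by -0.04 ± 0.09 (FDR 0.711). Of the 3 genes of the vitamin K cycle, which F7 and F10 need for their modification, Vkorc1 was induced by 1.31 ± 0.18 (FDR 0.000137). Over the 22 further pathway genes tested at D15, 10 were induced and 0 repressed, beside 18.1% and 12.9% of all genes. Of these 22, 17 had 10 reads in all 4 controls, and 7 of the 17 were induced. The 22 genes had a median log2 difference of 0.98 beside 0.02 over all genes. At D10, 0 of 21 were called by edgeR, of which 5 had a higher level and an unadjusted p under 0.05 (9.71% of all genes), with DESeq2, limma-voom and the likelihood ratio test also at 0. At D21, 0 of 21 were called by edgeR, with 9 higher and 4 lower at an unadjusted p under 0.05 (25.2% and 21.2% of all genes), while DESeq2 and the likelihood ratio test called 5 each. Of all 15266 genes, DESeq2 called 1364 induced and 369 repressed and the likelihood ratio test 1356 and 412. The quasi-likelihood test called 630 and 177. Without EAM replicate 3, edgeR called 7 at D21, where it called 1477 of all 15102 genes induced and 529 repressed.

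**Figure D4:**
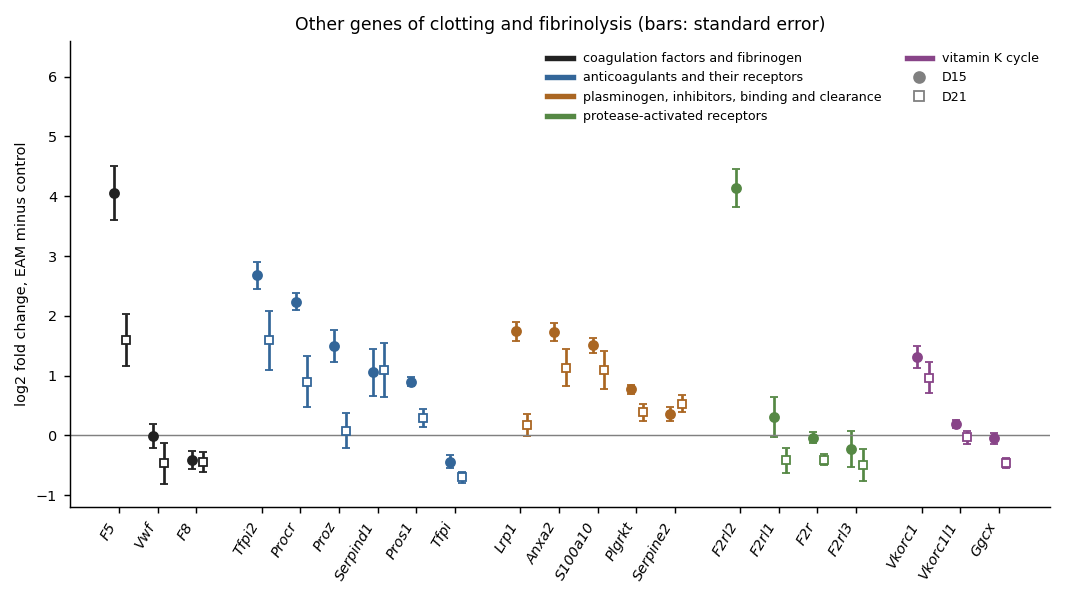
Log2 difference of EAM minus control hearts for other clotting and fibrinolysis genes that were tested, coloured by group, at D15 (filled circles) and D21 (open squares), with the standard error of the fit as bars. F5 and F2rl2 lie above 3.5 at D15, and Tfpi lies below 0 at both time points.

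Cell type markers moved with these results. Of the 11 markers of monocytes and macrophages, 10 were induced at D15 and 5 at D21, beside 18.1% and 4.13% of all genes. With any 1 control of D21 left out, 0 of all genes were induced at D21, these markers included. Their sum was 3590 to 4990 CPM in EAM hearts of D15 and 539 to 614 CPM in controls, 1269 to 4213 CPM against 493 to 758 CPM at D21, and 860 to 3148 CPM against 559 to 1191 CPM at D10. The highest EAM heart of D10 was again replicate 1, and the lowest of D21 replicate 3. All 7 neutrophil markers and all 7 T cell markers were induced at D15, although 2 and 7 of them passed the filter only with the EAM hearts, as was 1 of 3 tested B cell markers, all of which passed in that way. Of the fibroblast markers 2 of 6 were induced at D15 and at D21, the collagens Col1a1 and Col1a2, and the median log2 difference of the 6 was 0.63 at D15 and 0.28 at D21. Their sum was 4511 to 10520 CPM in EAM hearts of D15 and 1460 to 1716 CPM in controls, and 3101 to 8619 CPM against 1650 to 1998 CPM at D21, without overlap. The order of the EAM hearts by this sum was that of Plau, Plaur, Plat, F7 and Serpinb2 at D15 and D21. At D10 it was that of none of the 9 genes. The macrophage marker sum had the order of F10 at D10 and D15 and of F13a1 at D10 and D21. The neutrophil marker sum had that of F10 and F13a1 at D10 and of F13a1 at D15. The part of these markers in the values of the genes was not tested. Of the platelet markers 2 of 5 were induced and 1 was repressed, and of the hepatocyte markers 1 of 2, and that 1 passed the filter only with the EAM hearts. Of the cardiomyocyte markers 5 of 7 were repressed and of the endothelial markers 1 of 7, while 0 of 6 mesothelial and 0 of 4 mast cell markers were called by edgeR. At D10, where 0 mesothelial markers were called either, all 6 had a log2 difference above 0 (median 3.65). Their sum was 22.6 to 56.6 CPM in EAM hearts of D10, highest in replicate 1, against 8.90 to 13.6 CPM in controls. The controls of D10 were low beside later ones, at 15.5 to 58.0 CPM at D15 and 26.1 to 33.5 CPM at D21, where 3 of 6 markers were called higher than at D10. The part of these markers in the D10 values was not tested.

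Set against the sum of the macrophage markers in the same heart, as log2 of (CPM + 0.5) over the sum, Plaur was still higher in all EAM hearts of D15 than in all controls, by 1.28, where 2.02% of all genes were higher without overlap. F10 (by 4.63), Serpinb2 (3.94) and F7 (3.13) were higher as well, which is read as a description, since the first 2 were selected on their induction and F7 passed the filter only through the EAM hearts. The other 5 were lower without overlap, as were 94.6% of all genes: F13a1 by -1.68, Plau by -1.09, Plat by -2.41, F3 by -3.69 and Thbd by -3.68. At D21 Plaur (0.20) overlapped, where 0.956% of all genes were higher without overlap. F10 (3.33) and F7 (1.82) were higher without overlap, Serpinb2 (2.03) overlapped, and the other 5 were lower, as were 91.9%. At D10 the groups overlapped for all 9 genes, where 0.259% of all genes were higher and 2.35% lower without overlap. For F7, F10 and Serpinb2 the added 0.5 CPM lifts the control values near 0 and so makes the difference smaller. Whether other cells took part in these differences was not tested.

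**Figure D5:**
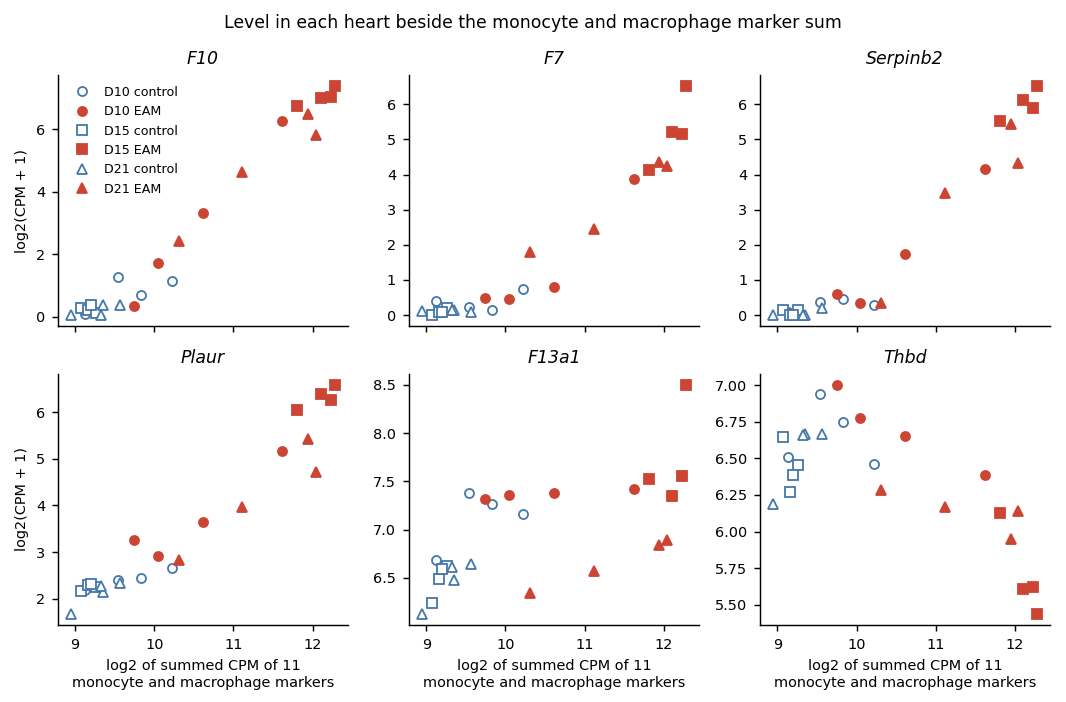
Level of 6 of the genes in each heart as log2(CPM + 1), against the log2 of the summed CPM of 11 markers of monocytes and macrophages, with control hearts as open blue symbols and EAM hearts as filled red symbols, and circles, squares and triangles for D10, D15 and D21. F10, F7, Serpinb2 and Plaur are each highest in EAM replicate 2 of D15, the heart with the highest marker sum, while EAM replicate 1 of D21 has a higher marker sum than EAM replicate 3 of D15 but less F10, Serpinb2 and Plaur and slightly more F7, and F13a1 at D10 overlaps between control and EAM hearts.

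The neighbours of F7 and F10 did not share their size of change. Mcf2l, which lies 5128 bases before F7, was lower in EAM hearts of D15 by -0.73 (FDR 0.00573). Proz, which lies 4237 bases after F10, was at 1.60 ± 0.279 CPM in EAM hearts of D15 against 0.575 ± 0.191 CPM in controls, and at 0.739 ± 0.205 CPM against 0.707 ± 0.157 CPM at D21. Serpinb10 overlaps Serpinb2 by 6476 bases on the same strand. The study took further only reads that mapped to 1 feature, so reads in shared bases may be missing. The difference of Serpinb10 between 0.1498 ± 0.0643 CPM in controls and 0.755 ± 0.130 CPM in EAM hearts at D15 is uncertain. The nearest expressed gene on the other side, Serpinb12, lies 554342 bases away and was at 0.523 ± 0.168 CPM in EAM hearts of D15, with 0 reads in the controls.

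The genes most like F10 were sought over the 12 EAM hearts, by the mean absolute difference in log2(CPM + 1) after subtracting each gene's mean over the 12 control hearts, among 16318 genes. They were Il1rn (0.35), an antagonist of the interleukin-1 receptor, the chemokine Cxcl9 (0.41) and Timp1 (0.51), an inhibitor of metalloproteinases. Il1rn was at 209.6 CPM in EAM hearts of D15 and 0.887 CPM in controls, and Cxcl9 at 323 and 2.70 CPM. Those most like Serpinb2 were AA467197 (0.28), the ubiquitin-like gene Ubd (0.41) and Lox (0.44), a collagen cross-linking enzyme. Serpinb2 ranked 17 among the genes most like F10, with a mean difference of 1.03, and F7 ranked 52, with 1.48. F7 ranked 18 among those most like Serpinb2, at 0.72. The measure follows the size of the rise above controls. F10 and Serpinb2 were selected on that rise, and F7 passed the filter only through the EAM hearts. Their ranks are therefore a description.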

How the data were processed

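RNA from 24 hearts, 4 EAM and 4 control at each of D10, D15 and D21, was sequenced as 75 bp read pairs from a directional kit. The authors aligned the reads to GRCm38 with HISAT2 2.0.4, removed duplicates with Picard, and assigned reads to Ensembl genes with featureCounts. They deposited raw, unnormalized counts per gene, both in single files and in 1 joint table. These forms differed in 0 cells. The sources used here do not give the strand setting of the counting.

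Sample labels gave the groups and replicate numbers. Tests used edgeR 4.0.16 (quasi-likelihood, TMM), with limma 3.58.1 and DESeq2 1.42.0 as alternatives (R 4.3.3). Python 3.11.15, SciPy 1.17.1, numpy 2.4.6, pandas 2.3.3 and matplotlib 3.10.9 served for summaries and plots. A gene was kept where 4 or more samples of a comparison held 10 or more reads (15029 genes at D10, 15693 for D15, 15266 for D21), and FDR is the Benjamini-Hochberg value over all of them. Each time point was fitted on its 8 samples, differences between time points on all 24, and control hearts on the 12 controls. Ratios of summed reads have exact 95% counting intervals. The test was tried on simulated data with known changes.

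The 9 genes, the marker and pathway lists and the tests were chosen with earlier results of these data known. Named besides the 9 genes are Tfpi, Procr, F2r, in each pathway list up to 4 genes called at D15 with the largest change and a mean of at least 1 CPM, the 3 genes most like F10 and Serpinb2, and the neighbours of F7, F10 and Serpinb2. The low liver-made factors, Alb, Apoa1, Col1a1, Col1a2 and the example markers Pecam1 and Cdh5 were named after their values were seen. Gene positions are those of GENCODE M21 on GRCm38, and exon lengths are of the union of its exons. Klkb1 had no matching identifier. The values of 1 gene of the pathway lists, which the counts include, are not reported here.

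Nothing in the labels says what replicate numbers mark. The hearts of a group are from separate mice by the study's description. At D21 the deviations of same-numbered EAM and control hearts from their group means correlated in 4 of 4 pairs over 0.1 (0.107, 0.181, 0.316 and 0.258). At D10 they did so in 2 of 4 (0.383 for replicate 1 and 0.430 for replicate 4), and at D15 in 0 of 4. EAM replicate 1 of D21 correlated best with control replicate 4, and replicates 2, 3 and 4 with their own number. The numbers were taken as pairs at D21 only, from this correlation. This choice is uncertain, since the 2 values at D10 were above all those of D21. The tests keep the hearts unpaired.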

Additional observations from a re-analysis of the deposited data

Results flagged for a closer look

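Within a group of 4 hearts, a single heart was set apart from the other 3 by Dixon's test for 10 of the 54 combinations of gene and group, and chance sets apart about 1 in 20. Of these 10, 4 were the EAM heart of replicate 1 at D10, with 13.6 CPM of F7, 76.4 CPM of F10, 32.7 CPM of Plau and 16.7 CPM of Serpinb2. For F10 and Serpinb2, which were selected on their EAM values, this is a description. The others were F13a1 at 360 CPM in EAM replicate 2 of D15, Thbd at 71.8 CPM in control replicate 3 of D21, Plau at 19.6 CPM and Plat at 28.7 CPM in control replicate 1 of D10, and Plat at 44.1 CPM and Serpinb2 at 0.154 CPM (3 reads) in control replicate 4 of D21, where the other 3 hearts had 0 reads, so that the last of these was fixed by the zeros.

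The EAM effect differed between time points by a test of the difference itself for F13a1 and Plaur, which were higher at D15 than at D10 by 1.10 and 2.58 on the log2 scale (FDR 0.00516 and 0.00519), and for F13a1, which was lower at D21 than at D15 (-1.12, FDR 0.00760). The latter was not called with the replicate number as a block (-1.05, FDR 0.0144). These calls were made in the fit of all 24 hearts.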

How the results depend on the processing

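The counts of called genes at D15 (4 of the 7 genes and 10 further pathway genes) stayed within 1.5 times under all alternatives run: DESeq2, limma-voom, edgeR's likelihood ratio test, the newer form of its quasi-likelihood test, other scaling, no filter, no fold limit, a replicate block, a fit of all 24 samples and leaving out each heart. At D21, where edgeR called 1 of the 7 genes, 3 were called by DESeq2, by the likelihood ratio test and in the fit of all 24 samples, 2 by the newer form, without the filter and with a replicate block, and 0 by limma-voom. Of all genes, these settings called 1364, 1356, 1514, 657, 877, 601 and 80 induced, in that order, beside 630 by the test used throughout. For further pathway genes at D21 (0 by edgeR), DESeq2, the likelihood ratio test and the fit of all 24 samples called 5, no fold limit gave 2 and no filter 1. DESeq2, the likelihood ratio test and the fit of all 24 samples also called 369, 412 and 446 of all genes repressed, beside 177. The difference of D15 and D10 gave 2 calls, 1 by limma-voom and 4 with a replicate block. Of all genes, 878 were called higher there, 826 by limma-voom and 1288 with the block. The difference of D21 and D15 gave 1 call and 0 with the block. Of all genes, 150 were called lower there, and 63 with the block. The cause of these shifts was not tested. The newer form was chosen after seeing the data, in place of the earlier form, which had been listed as an alternative but is the one used throughout. Scaling to total counts moved the median log2 difference of all genes at D15 from 0.016 to 0.165, with F3 at -0.58 and Thbd at -0.56 under it. The labels' numbers are not taken as pairs at D10 and D15, where the block left the counts at 0 and 4. At D21, where they are, Plaur was the only change in calls of the 7 genes. The Plau share differences at D15 and D21, 21.3 and 16.8 points, had an exact sign-flip p of 0.125 in the pairing of same-numbered hearts, the smallest that 4 pairs allow.

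With each heart left out in turn, calls ranged from 0 to 0 at D10, from 3 to 4 at D15, from 0 to 2 at D21, from 0 to 4 for D15 minus D10 and from 0 to 1 for D21 minus D15. Further pathway genes ranged from 9 to 10 at D15 and from 0 to 7 at D21. F7 cannot be tested there with an EAM heart of the time point left out, since 4 samples with 10 reads are needed. The D21 count was 2 without EAM replicate 3 (Plau and Plaur) and 0 without any other heart. Over all genes at D21, 630 were induced with all hearts and 0 without any 1 control. Leaving out EAM replicate 1, 2, 3 or 4 gave 4, 8, 1477 and 298. The D15 minus D10 count was 4 without EAM replicate 1 of D10, 1 without D10 control replicate 1, 2 or 3 or D15 EAM replicate 4, and 0 without EAM replicate 2, 3 or 4 of D10, EAM replicate 2 of D15 or control replicate 1 or 2 of D15. Over all genes, the number called higher in this difference ranged from 486 to 1999, the latter without EAM replicate 1 of D10, beside 878 with all hearts. The D21 minus D15 count was 0 without EAM replicate 2 or any control of D15, EAM replicate 2 or 3 of D21, or control replicate 1, 2 or 4 of D21. Over all genes, the number called lower in that difference ranged from 77 to 446, beside 150 with all hearts. The Plau share difference ranged from 2.94 to 9.28 points at D10, from 20.7 to 21.8 at D15 and from 13.7 to 19.7 at D21, and with 3 hearts in a group 0.05 cannot be reached. The F3 to Thbd difference ranged from -0.36 to -0.20 at D10, from -0.17 to 0.034 at D15 and from -0.43 to -0.09 at D21.

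Directions of single genes turned only where differences or reads were near 0. Log2 differences ranged over left-out hearts from -0.077 to 0.13 for Thbd at D10, from -0.0063 to 0.22 for Plat at D21, from -0.044 to 0.33 for F3 and from -2.20 to 1.42 for Serpinb2 in D21 minus D15. In controls of D15 against D10 they ranged from -0.083 to 0.032 for F3 and from -0.25 to 0.17 for Plau, and in those of D21 against D10 from -0.012 to 0.32 for Plau. F3 in D21 minus D15 was -0.034 with total counts.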
